A study of Mus musculus with 34 samples.

Results

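The genes described here are 35 mouse genes that mark endothelial cells, the cells that line blood vessels. They were listed by name, and each was read through the probe whose accession belongs to it and whose lung signal was the brightest, out of 20660 genes that could be named on the array. All 35 were measured and all 35 entered the tests, which covered 29315 units (named genes and unnamed accessions). By role the list holds 11 genes of cell junctions and adhesion, 8 receptors of the growth factor and TGF-beta families with their partners, 6 G protein-coupled receptors, partners and ligands, 5 transcription factors and 5 vascular enzymes, secreted and surface proteins.

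The study asked how the mouse lung responds to carbon nanotubes delivered into the airways. RNA was taken from whole lung pieces 28 days after a single intratracheal instillation of 1 of 3 carbon nanotube materials, coded NRCWE-043, NRCWE-044 or NRCWE-045 and given in a volume of 40 µl. The dose was 54 or 18 µg per animal. All mice, controls included, were female C57BL/6, aged 5 to 7 weeks, at a stage of the study that the labels do not name. The groups held 5 mice at 54 µg of NRCWE-043, 5 with NRCWE-044 and 5 with NRCWE-045 at that dose, then 5, 6 and 3 mice at 18 µg of the same materials, and 5 control mice. The labels do not say what the controls were given. Each of the 34 lungs was hybridised to its own array, lung RNA in Cy5 beside a universal reference RNA from 11 mouse cell lines in Cy3. Every value below is a log2 ratio of lung over that reference, or a difference between such ratios, where -1 is a halving.

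The lung holds a dense net of capillaries in the walls of the air sacs, so endothelial genes are abundant in whole lung RNA. Endothelial cells are held together by VE-cadherin and other junction proteins, are maintained by VEGF, angiopoietin and BMP9/ALK1 signalling, and owe their identity to transcription factors of the ETS and SOX families. In the mouse, capillary endothelium of the air sacs has been divided into a type marked by Ednrb, Apln and Car4 and a type marked by Aplnr and Gpihbp1. In whole lung RNA, fewer endothelial cells and less of these RNAs per cell cannot be told apart.

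Detection was checked first, which cannot show which cells made the RNA. Per array, 50.8 to 68.5% of all probes stood well above background in the lung channel. Of the 35 endothelial probes, 34 did so on all 34 arrays. The exception was Nos3, endothelial nitric oxide synthase, which was so on 33 arrays and fell short on an array of the group given 54 µg of NRCWE-045. Of the 35 probes, 21 were well above background in the reference channel on all arrays, 11 on some arrays and 3 (Calcrl, Erg and Sox17) on none.

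Promoter sequences are shown for 3 of the genes that differed most at 54 µg and that have an entry in the RefSeq promoter table (build GRCm38.p6). They are the receptor Ednrb, the surface protein Emcn and the receptor Tek, and each window is 300 bases at 1 listed start site, 5′ to 3′ on the gene's strand. For Ednrb this start lies 807 bases inside the annotated span of the gene, so the window does not reach the outermost annotated start, while for Emcn and Tek it lies 16 and 203 bases inside and the window includes the outermost start. Capitals mark AGGAAG, a sequence that ETS factors such as Erg bind, and ACAAT, the core that SOX factors such as Sox7, Sox17 and Sox18 bind. Both were read on both strands. Other sequences that ETS factors bind were not searched, so a count of 0 does not mean that a window lacks them.
Ednrb, chr14:103843652-103843951, minus strand.
Ednrb: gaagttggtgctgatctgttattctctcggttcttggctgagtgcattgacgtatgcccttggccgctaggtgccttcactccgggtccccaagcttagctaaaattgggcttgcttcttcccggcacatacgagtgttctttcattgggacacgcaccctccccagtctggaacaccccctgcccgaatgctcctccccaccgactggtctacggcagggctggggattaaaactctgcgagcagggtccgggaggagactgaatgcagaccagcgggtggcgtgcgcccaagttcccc
Emcn, chr3:137340828-137341127, plus strand.
Emcn: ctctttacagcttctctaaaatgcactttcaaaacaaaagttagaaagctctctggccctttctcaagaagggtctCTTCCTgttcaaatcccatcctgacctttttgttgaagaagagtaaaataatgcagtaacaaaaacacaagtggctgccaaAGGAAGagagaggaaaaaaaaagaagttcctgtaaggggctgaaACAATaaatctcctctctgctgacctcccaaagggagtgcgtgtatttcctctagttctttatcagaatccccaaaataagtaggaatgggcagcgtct
Tek, chr4:94739039-94739338, plus strand.
Tek: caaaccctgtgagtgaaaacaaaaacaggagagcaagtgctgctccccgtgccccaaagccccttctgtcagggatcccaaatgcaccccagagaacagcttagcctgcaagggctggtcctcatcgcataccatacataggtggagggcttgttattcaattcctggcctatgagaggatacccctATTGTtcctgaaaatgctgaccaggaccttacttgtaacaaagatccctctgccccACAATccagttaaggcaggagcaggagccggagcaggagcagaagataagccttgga
The Emcn window held 2 AGGAAG and 1 ACAAT, the Tek window 0 and 2, and the Ednrb window 0 and 0. Prx, also among the genes that differed most, had an entry too, and its window, which is not shown, held 0 and 0. In all, 15 of the 35 genes had an entry, with 19 sequences between them. AGGAAG lay in 10 of these 19 and in 35.4% of all 32851 mouse promoters of the table, and ACAAT in 6 of 19 and in 31.0%. The hypoxia core ACGTG lay in 1 of 19, with 19.6% among all promoters, and the forkhead core TGTTTA in 3 of 19, with 13.4%. Each motif was searched on its own on both strands, overlaps with another motif included, and a match is a run of letters and not a binding site.

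At 54 µg the endothelial genes had small negative changes against control lungs, none of which passed the adjusted test, and the low values were concentrated on 2 of the 6 array slides. Averaged over the 3 materials, all 35 had a log2 change below 0, between -0.48 and -0.02, with a median of -0.19, a change of -12.3%. Over all units tested 50.7% were below 0 and the median was 0.00. Without slides 2 and 4 the median was -0.09 with 26 of 35 below 0, and all 11 treated lungs whose mean over the 35 genes was below that of every control were on those slides, where pericyte, fibroblast and alveolar type 1 genes were low too. Over 15 other settings of the processing, the model or the arrays kept, the median ran from -0.28 to -0.09. The ends came from tissue scores as covariates and from leaving out slides 2 and 4, so this range is not one of signal processing alone. In the test itself, limma's moderated test with Benjamini-Hochberg adjustment over all 29315 units called 0 of 35 at an adjusted p of 0.05, and 0% of all units. The smallest adjusted p of an endothelial gene was 0.626, for Ednrb and Prx. At an unadjusted p under 0.05, 8 of 35 were lower and 0 higher, beside 2.76% and 2.86% of all units. The standard error of a gene's change ran from 0.08 to 0.32, and the 95% interval of the change lay below 0 for 8 of the 35.

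The 3 materials gave similar medians at 54 µg. NRCWE-043 lungs had a median of -0.19 with 31 of 35 genes below 0 (53.2% of all units), NRCWE-044 lungs -0.19 with 35 of 35 (49.9%), and NRCWE-045 lungs -0.21 with 34 of 35 (49.5%). At 18 µg the medians were -0.25 with 35 of 35 for NRCWE-043 (53.6%), -0.09 with 24 of 35 for NRCWE-044 (49.6%) and -0.25 with 33 of 35 for NRCWE-045 (49.3%). Averaged over materials at 18 µg, 33 of 35 genes were below 0, with 49.7% of all units, and the median was -0.21. Over the 15 other settings that median ran from -0.33 to -0.04, the last with the scanner software's own processed signals, which gave 24 of 35 below 0. In none of these 7 further comparisons with controls was an endothelial gene or any other unit called (0%). The smallest adjusted p of an endothelial gene was 0.727, 0.619 and 1 at 54 µg and 0.98, 1 and 0.382 at 18 µg, in the order of the material codes, and 0.999 for the mean at 18 µg. All 8 comparisons use the same 5 control arrays, so their likeness carries no weight of its own. At an unadjusted p under 0.05 the genes lower than in control lungs numbered 5, 3 and 5 at 54 µg, beside 3.11, 2.6 and 1.91% of units. At 18 µg they numbered 3, 1 and 6, beside 2.7, 1.52 and 2.88%, and 4 for the mean at 18 µg, beside 2.07%.

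Of the 35 genes, 21 were below 0 in all 6 groups, 8 in 5 of the 6, and no gene in fewer than 4. The map of changes by gene and group shows the lighter column of NRCWE-044 at 18 µg, where 11 genes were above 0, up to 0.16 for S1pr1, the receptor for sphingosine-1-phosphate.

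**Figure D1:**
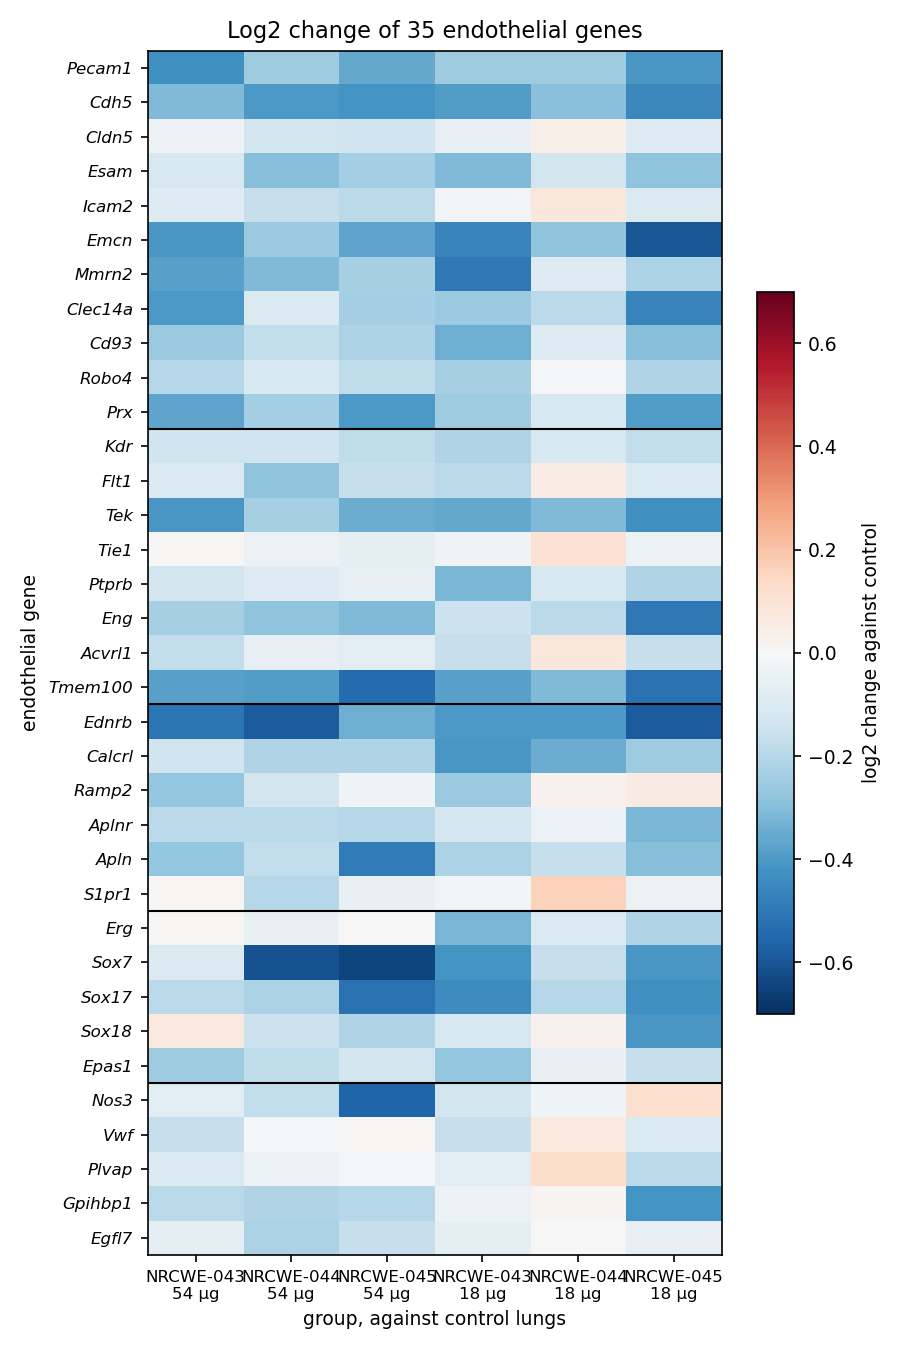
Log2 change of each of the 35 endothelial genes (rows, in 5 role blocks split by black lines) in each of the 6 nanotube groups against the 5 control lungs (columns). Blue is lower and red higher than in control lungs, and 24 of 35 cells are below 0 in the column of NRCWE-044 at 18 µg against 31 to 35 in the other columns.

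The junction and adhesion genes had the lowest median of the 5 roles at 54 µg, -0.25, and 11 of 11 were below 0. Among them 4 reached an unadjusted p under 0.05: Pecam1, Prx, Clec14a and Cd93. Cldn5, the tight junction claudin of endothelium, differed least, by -0.10 ± 0.12 (SE).

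Pecam1, the adhesion molecule CD31 that sits at endothelial cell borders, had log2 ratios of 3.20, 2.66, 3.15, 3.22 and 2.73 with NRCWE-043 at 54 µg, 3.14, 3.02, 3.48, 3.05 and 3.16 with NRCWE-044, and 3.38, 2.92, 3.24, 2.37 and 3.40 with NRCWE-045, against 3.25, 3.39, 3.41, 3.76 and 3.31 in control lungs. All 5 NRCWE-043 lungs lay below all 5 control lungs, and 12 of the 15 lungs at 54 µg did. The change was -0.43 ± 0.19 with NRCWE-043 (SE, adjusted p = 0.852 by limma), -0.25 ± 0.19 with NRCWE-044 and -0.36 ± 0.19 with NRCWE-045. Without the NRCWE-045 lung at 2.37, on slide 4, the last was -0.19. At 18 µg Pecam1 averaged 3.17 ± 0.28 (SD, n = 5), 3.17 ± 0.40 (n = 6) and 3.01 ± 0.35 (n = 3) in the order of the codes, against 3.42 ± 0.20 in control lungs (n = 5), and the groups overlapped.

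Prx encodes periaxin, a scaffold protein known from the myelin of peripheral nerve and expressed in lung endothelium. Its ratios were 4.21, 4.14, 4.42, 4.53 and 4.15 with NRCWE-043 at 54 µg, 4.21, 4.47, 4.31, 4.34 and 4.78 with NRCWE-044, and 4.16, 4.47, 4.33, 3.76 and 4.58 with NRCWE-045, against 4.56, 4.60, 4.84, 4.44 and 4.88 in control lungs. Of the 15 treated lungs, 10 lay below every control lung, and each material's range overlapped the controls. The mean change over materials was -0.34 ± 0.11 (SE, unadjusted p = 0.00424, adjusted p = 0.626 by limma), the second smallest unadjusted p of the list. At 18 µg of NRCWE-045 the 3 lungs were alike, at 4.27 ± 0.02 (SD), all below the controls at 4.66 ± 0.19.

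Cdh5, VE-cadherin, the main adhesion protein of endothelial junctions, gave 6.62, 5.47, 6.37, 6.02 and 6.30 with NRCWE-043 at 54 µg, 6.24, 5.56, 6.17, 6.06 and 6.28 with NRCWE-044, and 6.74, 5.60, 6.25, 5.45 and 6.18 with NRCWE-045, against 6.71, 6.67, 6.02, 6.47 and 6.46 in control lungs. In each 54 µg group 1 or 2 lungs were far lower than the rest, and only 5 of 15 lay below all controls. The mean change at 54 µg was -0.38 ± 0.19 (SE, adjusted p = 0.89 by limma), and the reference channel for Cdh5 was well above background on only 5 arrays. The NRCWE-043 change was -0.31, and -0.14 without its lung at 5.47 on slide 2. The NRCWE-045 change was -0.42, and -0.27 without its lung at 5.45 on slide 4. At 18 µg the group means were 6.08 ± 0.43, 6.18 ± 0.23 and 6.02 ± 0.55 (SD), against 6.47 ± 0.27 in control lungs.

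Emcn encodes endomucin, a sialomucin of capillary and venous endothelium. Its ratios were 3.75, 2.45, 3.49, 2.84 and 3.39 with NRCWE-043 at 54 µg, 3.78, 2.76, 3.38, 3.45 and 3.31 with NRCWE-044, and 3.96, 2.76, 3.39, 2.66 and 3.36 with NRCWE-045, against 4.09, 3.86, 2.87, 3.57 and 3.59 in control lungs. The control group itself spread widely, and its lowest lung sat below 10 of the 15 treated lungs. The mean change at 54 µg was -0.35 ± 0.22 (SE, adjusted p = 0.981 by limma), and with the scanner software's own processed signals it was 0.39, of the opposite sign. It was -0.53 without the control lung at 2.87 and -0.22 without the control lung at 4.09. The reference channel for Emcn was well above background on only 3 arrays. At 18 µg the means were 3.14 ± 0.46, 3.31 ± 0.32 and 3.00 ± 0.45 (SD), against 3.60 ± 0.46 in control lungs.

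Clec14a, a C-type lectin of endothelium, differed by -0.25 ± 0.12 (SE) at 54 µg and -0.31 at 18 µg. Its ratios in NRCWE-043 lungs at 54 µg and in NRCWE-045 lungs at 18 µg did not overlap those of control lungs. Across the 35 genes, 2 did not overlap the controls from below with NRCWE-043 at 54 µg (0.501% of all units), 1 with NRCWE-044 (0.604%) and 1 with NRCWE-045 (0.44%). At 18 µg the counts were 0 (0.256%), 0 (0.252%) and 4 (2.07%), the last in the group of 3 lungs. Mmrn2, the extracellular partner of Clec14a and Cd93, differed by -0.30 ± 0.16 at 54 µg and Cd93 by -0.22 ± 0.10. Esam, Robo4 and Icam2, further surface proteins of endothelium, differed by -0.22, -0.16 and -0.15.

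The growth factor and TGF-beta family receptors had a median of -0.17 at 54 µg, with 8 of 8 below 0 and 1, Tmem100, at an unadjusted p under 0.05. Tmem100 is a membrane protein induced in endothelium by BMP9 through ALK1. Its ratios were 5.78, 4.71, 5.69, 5.74 and 5.45 with NRCWE-043 at 54 µg, 5.79, 5.08, 5.59, 5.35 and 5.52 with NRCWE-044, and 5.87, 5.07, 5.57, 4.55 and 5.53 with NRCWE-045, against 5.93, 6.23, 5.67, 5.65 and 5.80 in control lungs. Of the 15 treated lungs 10 lay below all control lungs, yet each group reached into the control range. The NRCWE-043 change was -0.38, and -0.19 without its lung at 4.71 on slide 2, and the NRCWE-045 change was -0.54, and -0.35 without its lung at 4.55 on slide 4. The mean change was -0.44 ± 0.21 (SE, adjusted p = 0.88 by limma), and the means at 18 µg were 5.48 ± 0.54, 5.55 ± 0.38 and 5.34 ± 0.61 (SD), against 5.86 ± 0.24 in control lungs.

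Tek, the receptor TIE2 that binds angiopoietins, gave 4.68, 3.29, 4.40, 4.39 and 4.07 with NRCWE-043 at 54 µg, 4.52, 4.01, 4.74, 4.22 and 4.24 with NRCWE-044, and 4.98, 3.78, 4.55, 3.58 and 4.27 with NRCWE-045, against 4.61, 5.07, 4.07, 4.83 and 4.32 in control lungs. The groups overlapped broadly. The mean change was -0.33 ± 0.23 (SE, adjusted p = 0.993 by limma), and 0.06 with the scanner software's processed signals. It was -0.21 without the control lung at 5.07, and -0.46 without the control lung at 4.07. The reference channel for Tek was well above background on only 8 arrays. At 18 µg Tek averaged 4.22 ± 0.43, 4.27 ± 0.44 and 4.15 ± 0.65 (SD), against 4.58 ± 0.39 in control lungs. Its relative Tie1, an orphan receptor that works with TIE2, differed by -0.03 ± 0.10 and Ptprb, the phosphatase that restrains TIE2, by -0.10 ± 0.13. The VEGF receptors Kdr and Flt1 differed by -0.15 ± 0.15 and -0.18 ± 0.09, the ALK1 receptor gene Acvrl1 by -0.11 ± 0.12 and its co-receptor endoglin, Eng, by -0.27 ± 0.15.

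Among the G protein-coupled receptors and ligands the median was -0.19, with 6 of 6 below 0 and 2, Ednrb and Apln, at an unadjusted p under 0.05. Ednrb, the endothelin B receptor, was the gene with the largest difference in the list. Its ratios were 3.00, 2.29, 2.63, 2.55 and 2.65 with NRCWE-043 at 54 µg, 2.70, 2.68, 2.33, 2.33 and 2.68 with NRCWE-044, and 3.24, 2.49, 2.79, 2.21 and 3.22 with NRCWE-045, against 3.18, 3.27, 2.95, 3.07 and 3.19 in control lungs. All 5 NRCWE-044 lungs lay below all controls, as did 12 of the 15 lungs at 54 µg.

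At 18 µg the Ednrb ratios were 3.14, 2.62, 2.00, 2.87 and 3.02 with NRCWE-043, 2.33, 2.74 and 3.02 (lowest, median and highest of 6) with NRCWE-044, and 2.83, 2.62 and 2.21 with NRCWE-045. Of these 14 lungs, 10 lay below all control lungs. The change against controls was -0.51 ± 0.19, -0.58 ± 0.19 and -0.34 ± 0.19 at 54 µg (SE) and -0.40 ± 0.19, -0.40 ± 0.18 and -0.58 ± 0.22 at 18 µg, in the order of the codes. The mean over materials at 54 µg was -0.48 ± 0.15, a change of -28.3%, with an unadjusted p of 0.00409 and an adjusted p of 0.626 by limma. Without the NRCWE-045 lung at 2.21, on slide 4, the change with that material at 54 µg was -0.20. The other Ednrb probe gave -0.47. With the processed signals of the scanner software the NRCWE-045 value at 54 µg was 0.19, and the Ednrb reference signal was well above background on 16 arrays.

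Apln, the peptide ligand apelin, differed by -0.31 ± 0.13 at 54 µg, and its receptor Aplnr by -0.19 ± 0.21. The 5 Apln ratios with NRCWE-045 at 54 µg lay below all control ratios. Of the genes that mark the mouse capillary type of Ednrb and Apln, Car4, carbonic anhydrase 4, differed by -0.08 ± 0.09 and Tbx2, a transcription factor, by -0.04 ± 0.12. Gpihbp1, which carries lipoprotein lipase across capillary endothelium and marks the other type together with Aplnr, differed by -0.20 ± 0.16. Calcrl, a receptor that binds adrenomedullin, differed by -0.19 ± 0.32 and its partner Ramp2 by -0.15 ± 0.12.

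The transcription factors had a median of -0.19 with 5 of 5 below 0, and 1, Sox7, at an unadjusted p under 0.05. Sox7, a SOXF factor of endothelium, had ratios of 4.17, 3.88, 4.11, 4.33 and 3.91 with NRCWE-043 at 54 µg, 3.56, 3.42, 3.12, 3.95 and 3.81 with NRCWE-044, and 3.62, 3.21, 3.92, 3.04 and 3.87 with NRCWE-045, against 4.50, 4.50, 3.92, 3.90 and 4.08 in control lungs. The NRCWE-043 lungs spanned the lower part of the control range, while 4 of 5 lungs with each of the other materials were below all controls. The change was -0.10 ± 0.21 with NRCWE-043, -0.61 ± 0.21 with NRCWE-044 and -0.64 ± 0.21 with NRCWE-045 (SE). Leaving out single lungs moved the NRCWE-043 value between -0.17 and -0.02. The difference between NRCWE-043 and NRCWE-044 at 54 µg was 0.51 (unadjusted p = 0.022, adjusted p = 0.996 by limma), and between NRCWE-043 and NRCWE-045 0.55 (0.0146 and 0.795). At 18 µg Sox7 averaged 3.76 ± 0.48, 4.02 ± 0.24 and 3.77 ± 0.56 (SD), against 4.18 ± 0.30 in control lungs. Sox17 and Sox18, the other SOXF factors, differed by -0.31 ± 0.22 and -0.10 ± 0.14 at 54 µg. Erg, an ETS factor that maintains endothelial identity, differed by -0.02 ± 0.20 and Epas1, HIF-2 alpha, by -0.19 ± 0.14.

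**Figure D2:**
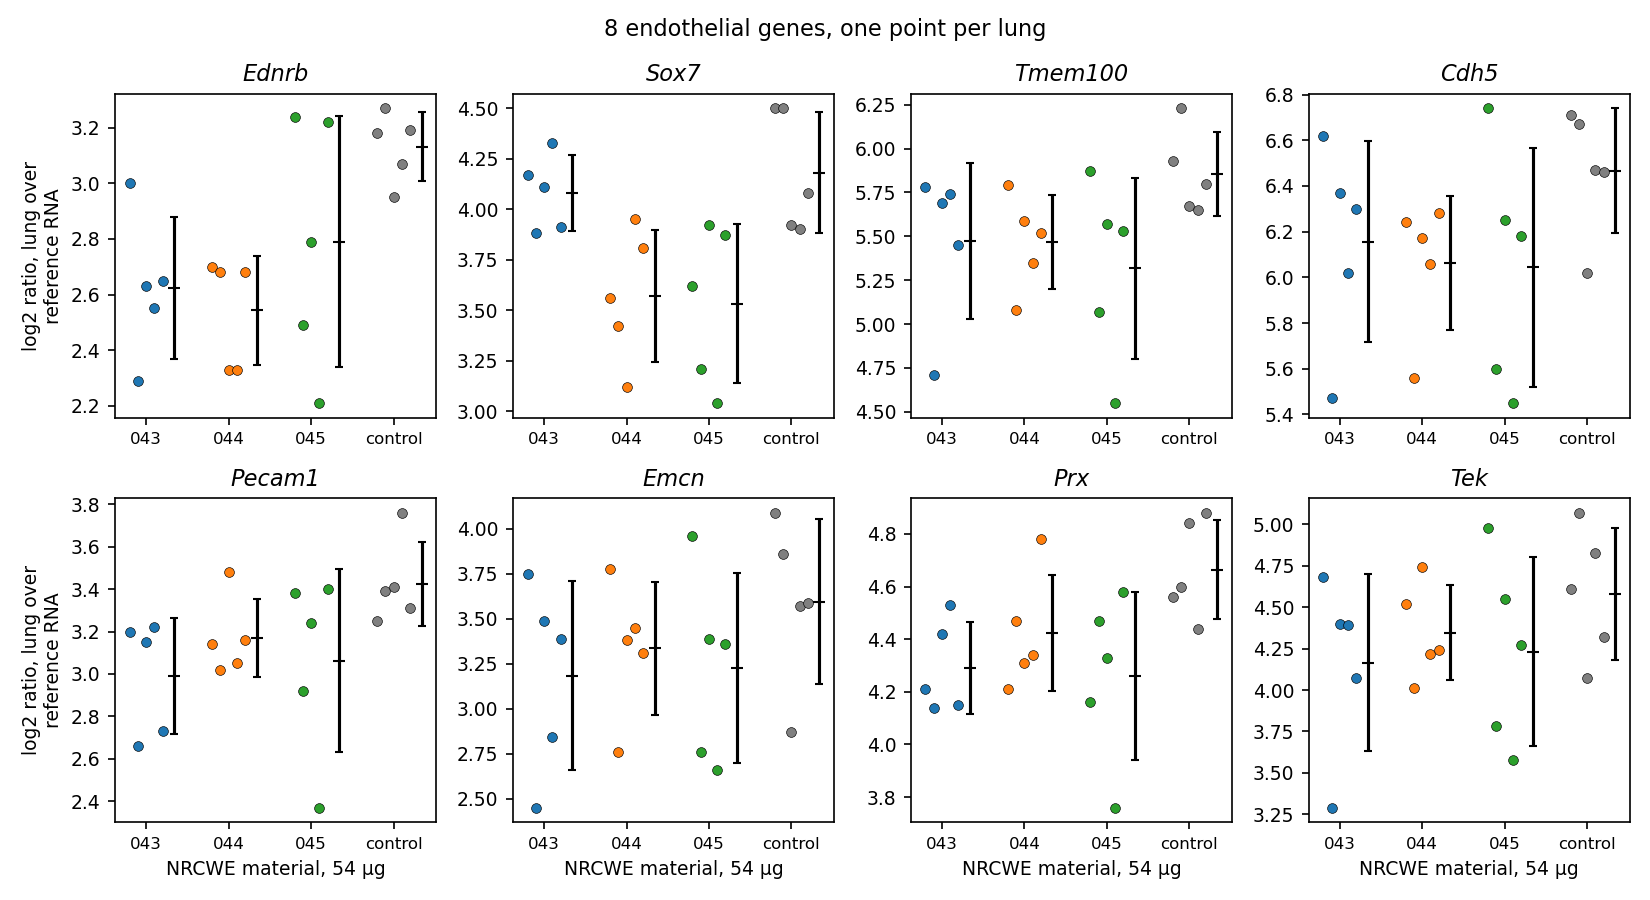
Log2 ratio of lung over reference RNA for the 8 endothelial genes with the largest change at 54 µg, a point per lung (n = 5 in each group), with the mean and SD as a bar to the right of each group. Ednrb in NRCWE-044 lungs and Pecam1 in NRCWE-043 lungs lie wholly below the control lungs, and the other groups overlap them.

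The vascular enzymes, secreted and surface proteins had the median nearest to 0 of the 5 roles at 54 µg, -0.15, with 5 of 5 below 0 and 0 at an unadjusted p under 0.05. Vwf, von Willebrand factor, differed by -0.05 ± 0.12, Plvap, the protein of endothelial diaphragms, by -0.05 ± 0.15, and Egfl7, a secreted endothelial protein, by -0.15 ± 0.10. Nos3 differed by -0.27 ± 0.18, and its ratios with NRCWE-045 at 54 µg were 2.34, 2.10, 2.15, 0.42 and 2.15, against 2.35, 2.47, 2.56, 2.09 and 2.47 in control lungs. A single lung at 0.42 sets the mean of that group, -0.56 against control, where the other Nos3 probe gave -0.19. For the probe used, the reference channel was lower in that group too, by -0.63 ± 0.37, beside -1.28 ± 0.60 in the lung channel (SE). The reference RNA is common to all arrays, so the low Nos3 value cannot be read as a lung value alone, and a fault of the spot was not tested.

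The choice of probe changed the size of some values. Of the 9 genes with several probes, Plvap was at -0.41 and Erg at -0.26 with their other probe at 54 µg, while Ptprb was at 0.00 and the other Epas1 probes at -0.13 and 0.05. The other probes of Clec14a, Kdr and Sox17 gave -0.35, -0.21 and -0.29.

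For each lung a score was taken as the mean over the 35 genes of the log2 difference from the control mean. The score was -0.20 ± 0.19 with NRCWE-043 at 54 µg, -0.21 ± 0.13 with NRCWE-044 and -0.24 ± 0.34 with NRCWE-045, against 0.00 ± 0.11 in control lungs (SD, n = 5 each). At 18 µg it was -0.24 ± 0.25 (n = 5), -0.09 ± 0.10 (n = 6) and -0.27 ± 0.23 (n = 3). Of the 15 lungs at 54 µg 14 scored below 0, and 12 of the 14 at 18 µg did, but only 6 and 5 of them lay below the lowest control lung.

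The low scores followed the slides on which the arrays were printed. The arrays sat on 6 slides, and each slide holds several groups. The mean score was -0.39 on slide 2 and -0.35 on slide 4, and between -0.06 and -0.03 on the other 4. All 11 treated lungs that scored below the lowest control were on slides 2 and 4, where 11 of 12 treated lungs did so, against 0 of 17 on the other slides. There treated scores ran from -0.19 to 0.06, against -0.74 to -0.17 on slides 2 and 4. Slide 2 holds the lowest control lung, at -0.19, and slide 4 holds no control. The lung at -0.74, NRCWE-045 at 54 µg on slide 4, also scored 2.47 for heart muscle genes and 2.82 for fat genes. Control lungs reached at most 0.93 and 1.08 in these scores. A NRCWE-044 lung at 54 µg on slide 1, with 2.35 and 3.56, had an endothelial score of -0.19. The part of such tissue in the low scores was not tested. For each of the 8 genes described lung by lung, the lowest lung at 54 µg was on slide 2 or 4. Fitted alone, the slide accounted for 0.631 of the variance of the score, and the group, also fitted alone, for 0.194. The groups are spread unevenly over the slides, so these shares overlap and do not divide the variance between slide and group.

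**Figure D3:**
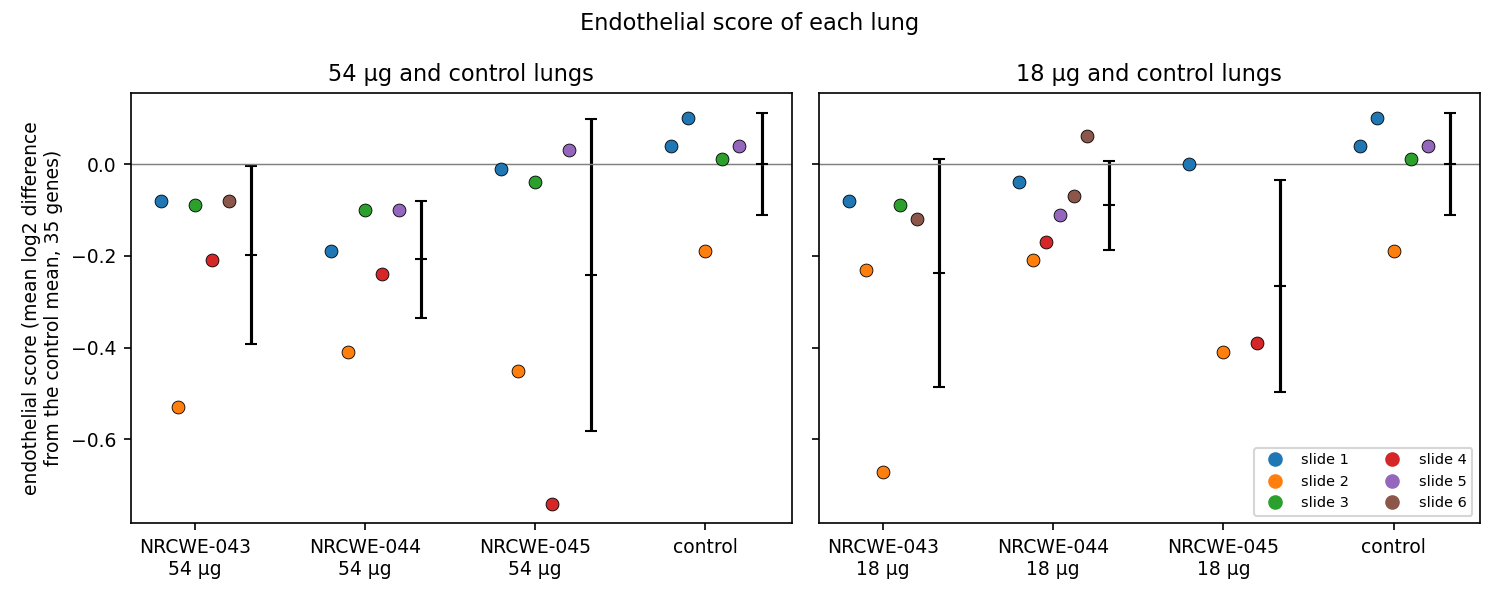
Endothelial score of each lung (mean log2 difference from the control mean over the 35 genes), in the 54 µg groups beside the controls and in the 18 µg groups beside the same controls, coloured by slide, with the mean and SD as a bar. The treated lungs below the lowest control (-0.19) are all on slides 2 and 4.

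Lungs were also compared with the controls of their own slide. The median difference of the 35 genes from the slide's controls was below 0 in 6 of 6 treated lungs on slide 1 (2 controls), 6 of 7 on slide 2, 4 of 4 on slide 3 and 2 of 3 on slide 5 (1 control each). The medians of these values were -0.15, -0.24, -0.08 and -0.13. By group they were -0.14, -0.18 and -0.04 at 54 µg and -0.11, -0.13 and -0.14 at 18 µg, from 2 to 4 lungs. All treated lungs of a slide were set against the same 1 or 2 controls, so the counts of lungs carry no weight of their own. With the slide as a fixed block in the model the median change was -0.17 at 54 µg with 33 of 35 below 0, and -0.10 at 18 µg with 31 of 35. Without slides 2 and 4, a choice made after the scores were seen, it was -0.09 with 26 of 35 and -0.10 with 27 of 35. For NRCWE-045 it was then -0.01 at 54 µg and -0.05 at 18 µg, with 22 and 19 of 35 below 0. No endothelial gene was called in these fits (0 of 35 in each).

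Genes of other cell types moved with the slides as well. On slides 2 and 4 the pericyte score was -0.36 and -0.35, the fibroblast score -0.42 and -0.32, the alveolar type 1 score -0.31 and -0.18 and that of 32 further endothelial genes -0.29 and -0.19. The alveolar type 2 score was -0.14 and 0.04 on the same slides, and the leukocyte score 0.25 and 0.22. Whether slide, tissue piece or cell make-up accounts for the low scores was not tested.

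**Figure D4:**
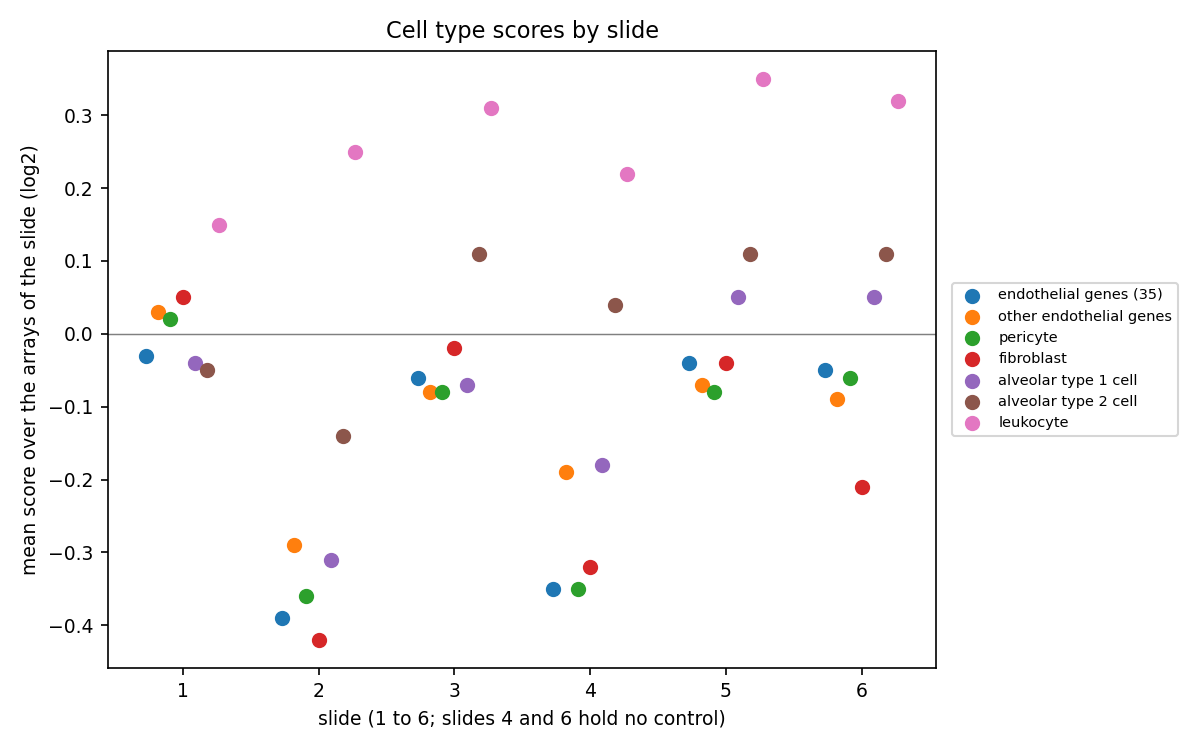
Mean score of 7 gene lists over the arrays of each slide (log2 difference from the control mean). The endothelial, pericyte and fibroblast points lie between -0.42 and -0.19 on slides 2 and 4, while leukocyte points are above 0 on all 6 slides.

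The wider set of cell type lists puts the endothelial values in context at 54 µg, each averaged over the 3 materials and with 0 members called. Of all units, 50.7% were below 0 in this comparison and 2.86% were higher at an unadjusted p under 0.05. The 10 leukocyte genes had a median of 0.35, with 10 of 10 above 0 and 9 at an unadjusted p under 0.05. Ptprc, the leukocyte antigen CD45, differed by 0.37 ± 0.16 and Coro1a, an actin regulator of leukocytes, by 0.30 ± 0.13. The leukocyte score per lung ran from 0.07 to 0.57 with NRCWE-043, 0.19 to 0.61 with NRCWE-044 and 0.14 to 0.41 with NRCWE-045. In control lungs it was 0.11, -0.42, -0.06, 0.16 and 0.20, so a single low control lowers the control mean. The 12 fibroblast genes had a median of -0.25 with 10 of 12 below 0, and Tcf21, a fibroblast transcription factor, differed by -0.71 ± 0.19 (adjusted p = 0.48 by limma). The 10 pericyte genes had a median of -0.15 with 9 of 10 below 0, and Pdgfrb, the receptor that recruits pericytes, differed by -0.14 ± 0.12. For 11 alveolar type 1 genes and 10 alveolar type 2 genes the medians were -0.13 and 0.01, with 10 and 4 below 0. The part of a shift in cell make-up in the endothelial values was not tested.

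The lists next to the endothelial genes in biology showed the following. The 32 further endothelial genes, among them Car4 and Tbx2, had a median of -0.14 at 54 µg and -0.11 at 18 µg, with 25 of 32 below 0 at both doses. The 24 genes of angiogenic ligands and signalling had medians of -0.15 and -0.09, with 18 and 19 below 0. Vegfa, the main growth factor for endothelium, differed by 0.14 ± 0.15 at 54 µg and Vegfb, its relative, by 0.05 ± 0.13. Of the endothelial activation genes 10 of 12 were tested, and their median was 0.07, with 6 above 0. Selp, P-selectin, differed by 0.09 ± 0.08 and Vcam1, an adhesion molecule for leukocytes, by 0.05 ± 0.10. The 6 lymphatic endothelial genes tested had a median of 0.02, and Prox1, the transcription factor that defines lymphatic endothelium, differed by 0.16 ± 0.08 (unadjusted p = 0.043, adjusted p = 0.87 by limma). None of these genes passed the adjusted test.

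Genes of heart muscle, fat and liver varied widely between arrays, and the source of these RNAs was not tested. The 10 heart muscle genes had a median of -0.60 at 54 µg and -1.25 at 18 µg, with standard errors as large as 1.16 for Myh6, the cardiac myosin. With heart, fat and liver scores as covariates the endothelial median was -0.28 at 54 µg with 35 of 35 below 0, and -0.33 at 18 µg with 35 of 35. Without the 4 lungs of highest fat or liver score, a choice made after seeing them, it was -0.17 with 33 of 35 and -0.23 with 35 of 35.

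The ratio was also split into its channels. In the lung channel alone the median change of the 35 genes was -0.17 at 54 µg, with 33 of 35 below 0, beside 51.3% of all units. Lower at an unadjusted p under 0.05 were 11 of 35, beside 2.96% of units, and 0 were called (0%). The reference channel of the same probes had a median of -0.03. Tmem100 had the smallest adjusted p in the lung channel, at -0.43 ± 0.12 (adjusted p = 0.422 by limma), followed by Icam2 at -0.27 ± 0.09 (adjusted p = 0.53 by limma). For Sox7 the lung channel gave -0.24, against -0.45 as a ratio, for Emcn -0.20 against -0.35 and for Cdh5 -0.23 against -0.38. Tie1 and Plvap, near 0 as ratios, were at -0.12 and -0.16 in the lung channel, and Erg was at 0.13.

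**Figure D5:**
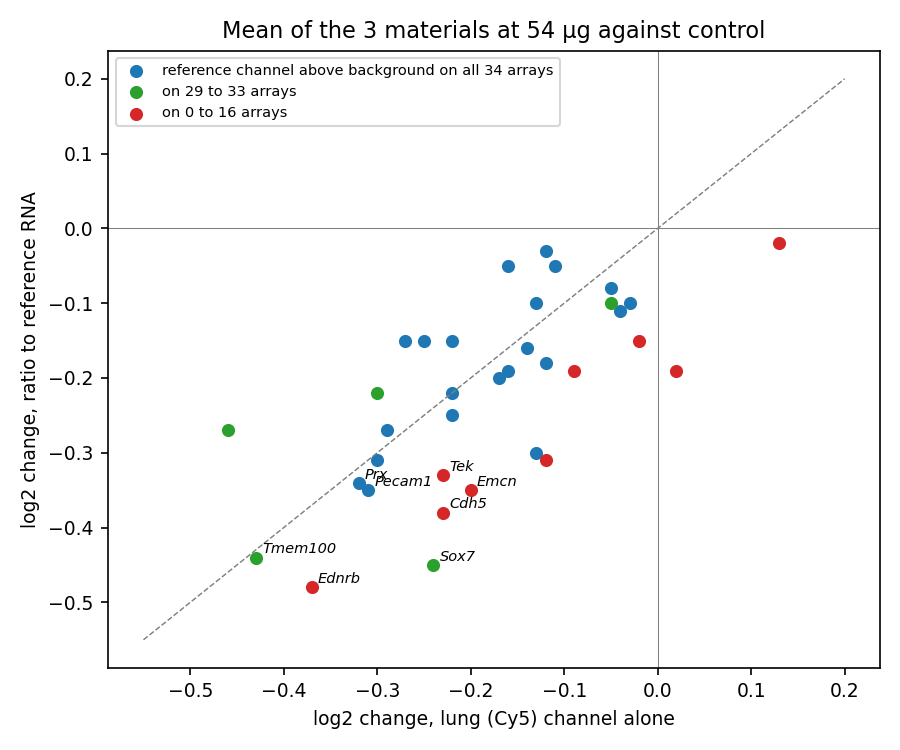
Log2 change at 54 µg (mean of the 3 materials, against control) of each of the 35 genes in the lung channel alone (horizontal) and as a ratio to the reference RNA (vertical), coloured by the number of arrays on which the reference signal was well above background. All 35 ratios and 33 of 35 lung channel values are below 0, and the dashed line marks equality.

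No endothelial gene was called between doses or between materials. Against 18 µg of the same material, the median change at 54 µg was 0.02 with NRCWE-043 (15 of 35 below 0, with 49.2% of all units), -0.13 with NRCWE-044 (28 of 35, 50.3%) and 0.03 with NRCWE-045 (15 of 35, 51.2%). Over the 3 materials it was -0.03 (22 of 35, 51.2%). The 95% interval of this dose difference ran from -0.25 to 0.21 for Ednrb, from -0.28 to 0.19 for Pecam1 and from -0.38 to 0.14 for Sox7. None of the 35 genes was called in these 4 comparisons, nor any unit (0%). The genes at an unadjusted p under 0.05 with NRCWE-044 were Flt1 (-0.33, adjusted p = 0.876 by limma), Sox7 (-0.45) and Icam2 (-0.23), which is 3 of 35 beside 2.35% of units. With NRCWE-045 it was Nos3 alone, with the lung at 0.42, which is 1 of 35 beside 1.56% of units. The dose difference was also compared between materials as an interaction, and 0 of 35 genes were called in each of the 3 pairs, with a smallest adjusted p of 0.999.

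Between materials at 54 µg the medians were 0.01 for NRCWE-043 against NRCWE-044, 0.03 for NRCWE-043 against NRCWE-045 and 0.02 for NRCWE-044 against NRCWE-045. The endothelial genes below 0 numbered 16, 14 and 14 of 35, beside 53.9, 52.7 and 47.6% of units, and 0 were called, beside 0, 0.00341 and 0% of units. At an unadjusted p under 0.05, 1, 0 and 0 were lower (2.72, 3.2 and 2.28% of units) and 1, 2 and 0 higher (2.07, 1.9 and 1.32%). At 18 µg the medians were -0.14, 0.00 and 0.16, with 32, 16 and 3 below 0, beside 52.2, 52.4 and 50.9% of units. Again 0 of 35 were called, beside 0.0102, 0.43 and 0% of units. Unadjusted, 4, 0 and 0 were lower (3.84, 7.26 and 4.13%) and 0, 0 and 1 higher (1.72, 3.46 and 2.03%). The units called between NRCWE-043 and NRCWE-045 at 18 µg include liver genes. Liver scores of the 3 NRCWE-045 lungs were 0.84, 4.36 and 0.53, against 0.05 at most in control lungs.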

How the data were processed

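Lung RNA of 34 mice was measured on two-colour arrays in 7 groups taken from the sample labels. Per the file headers, the authors read the scans with Feature Extraction 11.0.1.1 from Agilent. In the deposited scanner files each channel has an intensity of spot and background, as medians, and a processed intensity, and a log10 ratio was deposited with them but left unused. The deposited series table gives log2 ratios, and how they were made is not given here. It followed the values used here with a correlation across probes of 0.994 to 0.998. The plan named mean spot signals; medians were used because the deposited files hold these.

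Background was corrected with normexp (offset 50), ratios were normalized by loess within arrays, and control and irregular spots had weight 0 (limma 3.58.1, statmod 1.5.0, R 4.3.3). Of 55681 probes 27235 were named through RefSeq. A unit was tested if its lung signal exceeded background clearly (the scanner's flag) on 3 arrays or more, 29315 in all, with lmFit and eBayes on the 7 group means and Benjamini-Hochberg adjustment over all units. Per array 50.8 to 68.5% of probes were well above background in Cy5, and no spot was saturated (0). The number of arrays limits precision. On simulated arrays with a known 1.5-fold change, 85.1% of changed genes were recovered for the mean at 54 µg, and 52.2% for NRCWE-045 at 18 µg. Noise in that simulation was independent between arrays, with no slide effect, and 2- and 4-fold changes were simulated beside the 1.5-fold ones. In the real arrays the correlation within a slide was 0.294, so the simulation does not give the recovery for these lungs. The arrays hold separate mice per the labels' sample numbers, and replicate numbers follow the order of deposit. One control array is titled NRCWE-043 with 0 µg and was used as a control.

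The 35 genes and the other lists were chosen with earlier results of these data known. Genes given lung by lung are the 8 with the largest change in the mean at 54 µg. Of every other list the first 2 genes tested could be named; Clec14a, Cd93, Apln, Nos3 and others of the 35 are named as members. Slide numbers come from the scanner files' names. Alternatives were another background correction, the processed signals, the series table, quantile scaling, other filters on dim probes, the mean over probes, slide as a block, tissue scores, only the groups compared, and each array left out in turn.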

Additional observations from a re-analysis of the deposited data

Results flagged for a closer look

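In 216 sets of values of 1 measure in 1 group (the 35 genes and the endothelial score in 6 groups of 5 or 6 arrays), a lung was marked where it stood apart from the rest of its group by Dixon's criterion, which chance meets in about 1 of 20 sets. There were 14 such values. Lungs of slide 2 account for 8 of them, all low. The endothelial score of NRCWE-043 at 54 µg, replicate 2, was -0.53 while the others lay between -0.21 and -0.08, and that of NRCWE-043 at 18 µg, replicate 3, was -0.67 while the others lay between -0.23 and -0.08. The same 18 µg lung was low in Esam (3.47 beside 4.16 to 4.36), Cd93 (5.78 beside 6.27 to 6.38) and Ramp2 (4.86 beside 5.46 to 5.69). Mmrn2 was 5.15 in NRCWE-044 at 18 µg, replicate 2 (others 5.65 to 5.88), and Ramp2 was 5.24 in NRCWE-044 at 54 µg, replicate 2 (others 5.62 to 5.73). Tie1 was 3.05 in control replicate 3 (others 3.25 to 3.27). On other slides, Nos3 was 0.42 in NRCWE-045 at 54 µg, replicate 4 (others 2.10 to 2.34), and 2.47 in NRCWE-043 at 54 µg, replicate 1 (others 2.24 to 2.28). Epas1 was 8.05 in NRCWE-044 at 54 µg, replicate 3 (others 8.45 to 8.58), and Acvrl1 was 5.75 in NRCWE-043 at 54 µg, replicate 5 (others 5.22 to 5.36). In control lungs Flt1 was 4.00 in replicate 1 (others 3.75 to 3.82) and Aplnr was 3.28 in replicate 5 (others 2.20 to 2.37).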

How the results depend on the processing

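In every alternative run 0 of the 35 genes were called. Of the other settings' values 2067 stayed within the limits used, 7 moved and 11 took the opposite sign. This tally does not measure how stable the medians are. The limit for a median was about as large as the medians themselves, so a median could reach 0 within it. Counts of 0 genes called were also among the 2067. An opposite sign was looked for only in the 8 genes given lung by lung. With the scanner software's processed signals, centred on the array median, the genes below 0 numbered 20 with NRCWE-044 and 21 with NRCWE-045 at 54 µg, and 10 with NRCWE-044 at 18 µg, where the median was 0.11; in the means they numbered 25 at 54 µg and 24 at 18 µg, with medians of -0.10 and -0.04. In that setting Emcn was 0.18, 0.54 and 0.44 at 54 µg in the order of the codes and 0.39 in their mean. Tek was 0.40 with NRCWE-044 and 0.06 in the mean, Tmem100 0.06 with NRCWE-044, Cdh5 0.05 with NRCWE-044 and 0.11 with NRCWE-045, and Ednrb 0.19 with NRCWE-045. In the lung channel alone Sox7 was 0.06 with NRCWE-043 at 54 µg. The cause was not tested. Without slides 2 and 4, NRCWE-045 had 22 genes below 0 at 54 µg and 19 at 18 µg. Within slide 5 the NRCWE-045 median at 54 µg was 0.01. Without the lungs of high fat or liver score the median of NRCWE-045 at 54 against 18 µg was 0.29. Leaving out each array in turn, the median was -0.24 to -0.15 for the mean at 54 µg and -0.24 to -0.16 at 18 µg; by material it was -0.23 to -0.11, -0.22 to -0.13 and -0.29 to -0.10 at 54 µg, and -0.27 to -0.14, -0.15 to -0.03 and -0.37 to -0.15 at 18 µg. Lung channel alone, slides with controls, slides left out and lungs left out were chosen after seeing the data. No paired analysis was possible because the labels give the groups no shared replicate numbers; the slides that groups share were used as a block and for differences within slides. For 9 of the 35 genes the reference signal was well above background on 16 arrays or fewer, which limits their ratios. They are Cdh5, Emcn, Kdr, Tek, Ednrb, Calcrl, Aplnr, Erg and Sox17. Leaving out single lungs moved Emcn and Tek by over 1.5 times with each material, to between -0.59 and -0.11 and between -0.54 and -0.11.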
